A study of Mus musculus with 3 samples.

Results

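Integrin and laminin genes were described across the cell classes of mouse dorsal skin by droplet single-cell RNA sequencing. The members were all genes whose symbol starts with Itga, Itgb, Lama, Lamb or Lamc followed by the digit or letter of a subunit. This gave 38 of the 33696 genes in the files, of which 18 encode integrin alpha chains, 9 integrin beta chains and 11 laminin chains. Of the 42 symbols with these starts, Itgb1bp1, Itgb1bp2, Itgb3bp and Itgbl1 were left out, since they do not name a subunit.

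All mice were 9-week-old C57BL/6 females whose back skin had been depilated with wax strips. 1 library each was made for the chemotherapy-induced alopecia model with venlafaxine (CIA+VFX), for the model alone (CIA) and for vehicle-treated controls (Cont). Each was made from skin pooled over an unstated number of mice. With n = 1 per group, nothing could be tested, and no difference below has a replicate check. The drug that caused the alopecia, its dose and the day of sampling are not in the labels. Collagenase digestion and a Percoll gradient preceded the droplets, so the shares of cells describe the suspension and not the intact skin.

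Integrins are receptors of an alpha and a beta chain that span the cell membrane and bind the surrounding matrix or ligands on other cells. Laminins are secreted trimers of an alpha, a beta and a gamma chain that form much of the sheet called the basement membrane. In skin, the receptor made of Itga6 and Itgb4 anchors basal keratinocytes, through hemidesmosomes, to a laminin that contains the Lama3 and Lamb3 chains. Leukocyte integrins that carry Itgb2 or Itgb7 bind ligands on endothelial and epithelial cells.

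After filters, the CIA+VFX, CIA and Cont libraries held 15372, 15401 and 11904 cells with median depths of 5474, 5071 and 6853 UMIs (unique molecular identifiers, each 1 captured transcript). Pairs of libraries shared between 75 and 110 cell barcodes. Each cell was put in a class by its own expression of listed markers, none of them an integrin or laminin gene, and 17 of 25 classes had at least 50 cells in each library. These 17 were compared, and a class called the highest for a gene is the highest of the 17. Levels are given as CPM, in which the UMIs of a gene are scaled to a common total of UMIs for each class and library, and are not divided by transcript length. A gene was measured in a comparison if it had at least 50 UMIs in its 2 libraries, and it was called past the fold if its CPM differed at least 1.5-fold. Intervals (95%) cover counting error only. Of the 38 members, 36 were measured in at least 1 class in the comparison of CIA with Cont. Itgb2l, a beta chain related to Itgb2, had 2, 19 and 1 UMIs over the CIA+VFX, CIA and Cont libraries, and Itgad, a leukocyte alpha chain, had 29, 23 and 52 UMIs.

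Promoter sequence was at hand for 24 of the 38 members, from RefSeq on GRCm38.p6, a build other than that of the counts. The letters of 10 motifs were searched on both strands in the 250 bases before each start. The windows of 3 members are shown, 5′ to 3′ on the strand of the gene, with a motif match in capitals. Lamb3 (chr1:193301744-193301993, plus strand) is the beta chain of the epidermal laminin and was also counted in lymphoid cells and neutrophils. Itgav (chr2:83724147-83724396, plus strand) had its highest levels in T cells. Itgax (chr7:128129300-128129549, plus strand) is a leukocyte alpha chain.
Lamb3: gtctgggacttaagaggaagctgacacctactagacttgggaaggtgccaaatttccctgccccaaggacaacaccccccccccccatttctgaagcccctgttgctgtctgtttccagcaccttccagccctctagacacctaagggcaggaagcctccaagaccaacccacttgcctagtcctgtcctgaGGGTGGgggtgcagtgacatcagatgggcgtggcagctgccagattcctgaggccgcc
Itgav: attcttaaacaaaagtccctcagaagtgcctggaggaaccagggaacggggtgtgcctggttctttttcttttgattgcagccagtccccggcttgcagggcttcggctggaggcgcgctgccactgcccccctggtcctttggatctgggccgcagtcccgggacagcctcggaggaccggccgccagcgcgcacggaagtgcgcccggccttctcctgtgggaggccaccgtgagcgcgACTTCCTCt
Itgax: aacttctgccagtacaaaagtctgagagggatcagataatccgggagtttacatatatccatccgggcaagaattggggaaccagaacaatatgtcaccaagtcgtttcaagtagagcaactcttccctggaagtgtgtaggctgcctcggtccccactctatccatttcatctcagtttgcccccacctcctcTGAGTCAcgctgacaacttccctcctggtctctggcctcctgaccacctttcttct
The capitals mark the CACC box (CCACCC, here on the opposite strand) in Lamb3, the PU.1-type motif (GAGGAAGT, here on the opposite strand) in Itgav and the AP-1 motif (TGANTCA) in Itgax. The CACC box was in windows of 8 of the 24 members and in 28.1% of all 32851 windows. The PU.1-type motif was in those of 4 members (Itga11, Itgav, Itgb2l and Itgb6) and 2.44% of all windows, and AP-1 in that of Itgax alone and 6.75% of all. The GC box (GGGCGG) was in windows of 8 members and 32.7% of all, and the RUNX motif (TGTGGT) in windows of 2 and 14.0% of all. The other 5 motifs were in no member's window. Of all windows, 0.804% held the ETS motif (ACCGGAAGT), 0.356% the NF-kappaB motif and 0.49% a p63-type motif. The E-box (CACGTG) was in 6.02% of all windows. The TATA motif (TATAAA) was in 12.4%. Lamb3 had a further annotated start, whose window is not shown. A match is a description of the letters and not a binding site.

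The classes differed in which chains they carried. For 28 of the 38 members the same class was highest in every library, and no like count was made over all genes.

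**Figure D1:**
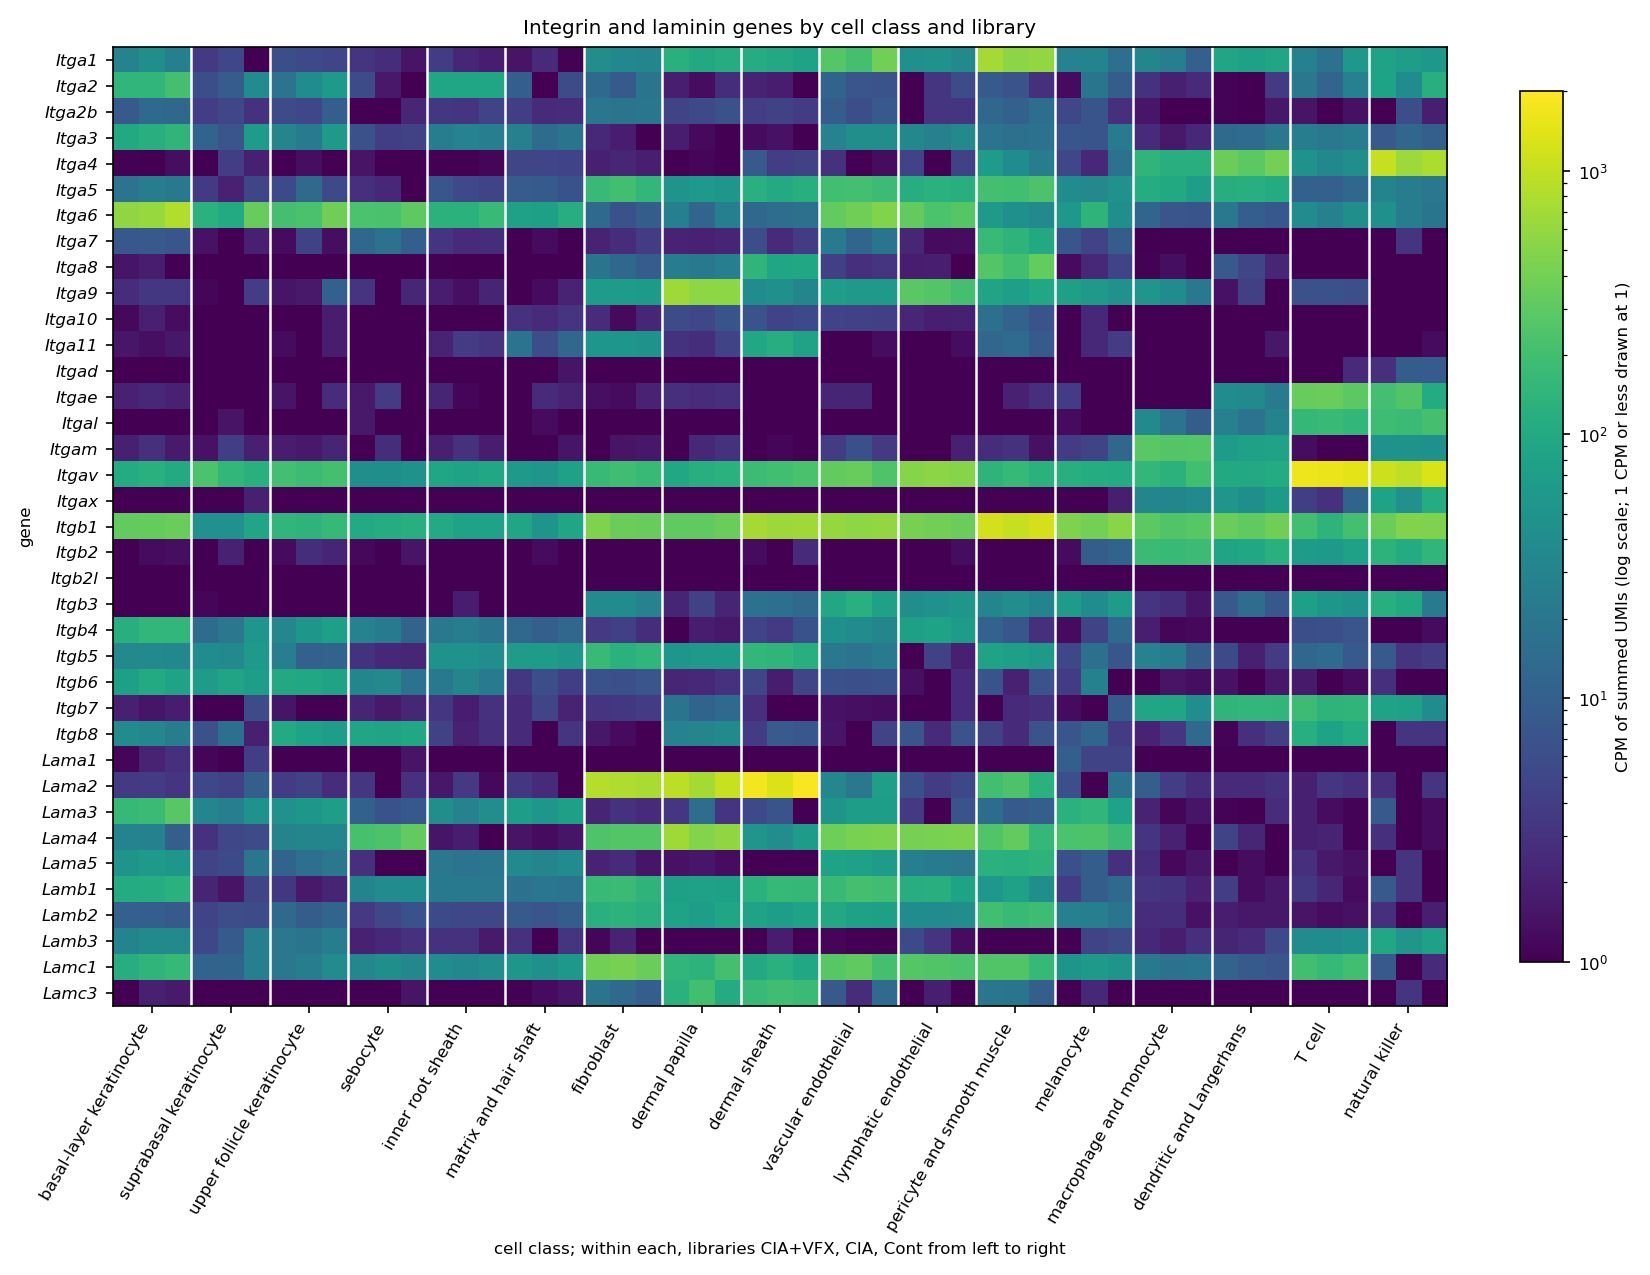
CPM of the reported genes (rows) in 17 cell classes, with the CIA+VFX, CIA and Cont libraries side by side in each class and colour on a log scale, where 1 CPM or less is drawn at 1. Lama2 reached 1758, 1358 and 1861 CPM in dermal sheath cells and Itgav 1628, 1605 and 1482 CPM in CIA+VFX, CIA and Cont in T cells, and Itga6 was highest in basal-layer keratinocytes.

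Among the laminin alpha chains, Lama3, the alpha chain of the epidermal laminin, was highest in basal-layer keratinocytes, at 161, 179 and 275 CPM in CIA+VFX, CIA and Cont. In melanocytes it was 129, 147 and 81.1 CPM in CIA+VFX, CIA and Cont. Lama2, an alpha chain of mesenchymal and muscle basement membranes, was highest in dermal sheath cells, at 1758, 1358 and 1861 CPM in CIA+VFX, CIA and Cont, and was 1.93, 3.34 and 2.85 CPM in T cells. The dermal sheath level thus stood far above what a leukocyte class held of the same gene. Lama4, an alpha chain typical of vessels, was highest in dermal papilla cells, at 671, 494 and 571 CPM in CIA+VFX, CIA and Cont. It was 422, 430.0 and 453 CPM in CIA+VFX, CIA and Cont in lymphatic endothelial cells and 376, 429.9 and 443 CPM in vascular endothelial cells, which lay close to each other. Sebocytes also carried Lama4, at 216, 239.7 and 322 CPM in CIA+VFX, CIA and Cont. Lama5 was highest in pericytes and smooth muscle, at 129.9, 126 and 136 CPM in CIA+VFX, CIA and Cont, and was 50.6, 61.8 and 56.5 CPM in basal-layer keratinocytes. In basophils it was 139.6, 124 and 63.9 CPM in CIA+VFX, CIA and Cont, from 67, 74 and 1 UMIs. Lama1, an alpha chain best known from embryos, had 75, 73 and 147 UMIs in CIA+VFX, CIA and Cont over the whole libraries and was highest in melanocytes, at 10.1, 4.75 and 4.77 CPM from 8, 2 and 5 UMIs.

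Among the beta and gamma chains, Lamc1, the gamma chain shared by most laminins, was highest in fibroblasts, at 394, 421 and 355 CPM in CIA+VFX, CIA and Cont. It was also counted in T cells, at 200.4, 165 and 198 CPM in CIA+VFX, CIA and Cont, and there it was 289, 282 and 279.9 CPM within the cluster led by Ctla4 and Foxp3. Lamc3 was highest in the mesenchyme of the follicle, with 172, 196 and 177 CPM in CIA+VFX, CIA and Cont in dermal sheath cells and 128, 199.9 and 109 CPM in dermal papilla cells. The dermal papilla cells had the higher value in CIA and the dermal sheath cells in CIA+VFX and Cont. Lamb1, a widely used beta chain, was highest in vascular endothelial cells, at 173, 214 and 193 CPM in CIA+VFX, CIA and Cont. Lamb2, a beta chain of mature vessels and muscle, was highest in pericytes and smooth muscle, at 200.1, 167 and 188 CPM in CIA+VFX, CIA and Cont.

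Lamb3, the beta chain of the epidermal laminin, did not follow Lama3, its partner. In basal-layer keratinocytes it was 30.9, 37.1 and 35.4 CPM in CIA+VFX, CIA and Cont, while in T cells it was 39.1, 40.5 and 45.7 CPM and in natural killer cells 92.7, 52.8 and 77.0 CPM. In T cells Lama3 was 1.93, 1.30 and 1.07 CPM in CIA+VFX, CIA and Cont. The T cell and natural killer classes thus had Lamb3 above the level of the whole basal-layer class in every library. Lama3 was at a few CPM in T cells. Clusters within the basal-layer class differed widely in Lamb3. Taken whole, cluster 0 was named basal-layer keratinocyte by the markers, cluster 7 upper follicle keratinocyte and cluster 5 inner root sheath. Hair shaft markers such as Krt35 and Krt31 were among the leading genes of cluster 5. Lamb3 was 46.8, 41.2 and 50.8 CPM in CIA+VFX, CIA and Cont in cluster 0 and 94.0, 78.5 and 77.6 CPM in cluster 7. Both clusters were above T cells in every library. In cluster 5 Lamb3 was 3.25, 2.63 and 4.24 CPM in CIA+VFX, CIA and Cont. Neutrophils, a class with 161, 181 and 24 cells that was not compared between libraries, had 70, 74 and 17 UMIs of Lamb3, or 203, 168 and 311 CPM, in CIA+VFX, CIA and Cont. Thinned to 2000 UMIs per cell, 7.33%, 7.39% and 9.07% of T cells had a Lamb3 UMI, against 0.599%, 0.433% and 0.442% of macrophages and monocytes in CIA+VFX, CIA and Cont. Without thinning these shares were 14.3%, 15.3% and 17.0% of T cells and 1.15%, 0.948% and 1.58% of macrophages and monocytes in CIA+VFX, CIA and Cont.

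In the GRCm38 annotation at hand, Lamb3 is overlapped on the opposite strand by Hsd11b1, a glucocorticoid-activating enzyme, and by G0s2, an inhibitor of lipolysis. The sources used here do not say whether counting used the strand, so UMIs of overlapping genes cannot be told apart with certainty. Hsd11b1 was 37.0, 32.0 and 28.7 CPM in CIA+VFX, CIA and Cont in T cells and 287, 288 and 219.5 CPM in neutrophils. G0s2 was 4108, 4367 and 4573 CPM in CIA+VFX, CIA and Cont in neutrophils and 0.214, 1.12 and 0 CPM in T cells. In fibroblasts, Hsd11b1 was 54.5, 67.6 and 55.4 CPM in CIA+VFX, CIA and Cont while Lamb3 was 1.16, 2.08 and 0.997 CPM. In natural killer cells, Hsd11b1 was 47.8, 83.8 and 57.6 CPM in CIA+VFX, CIA and Cont and Lamb3 92.7, 52.8 and 77.0 CPM. The part of the overlapping genes in the lymphoid and neutrophil Lamb3 counts was not tested.

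**Figure D2:**
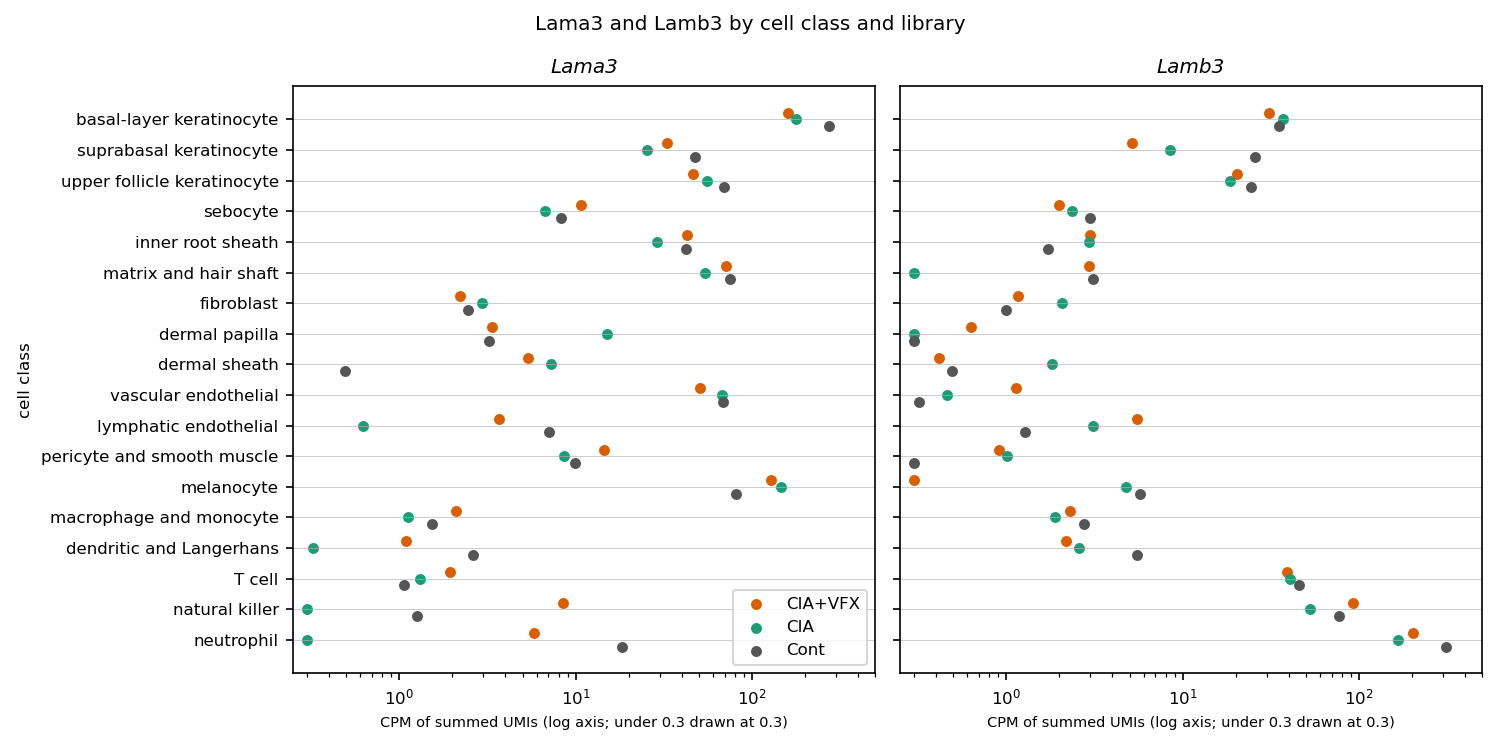
CPM (log axis, with values under 0.3 drawn at 0.3) of Lama3 and Lamb3, chains of the epidermal laminin, in 17 classes and in neutrophils, with 1 point per library. In T cells Lamb3 was 39.1, 40.5 and 45.7 CPM and Lama3 1.93, 1.30 and 1.07 CPM in CIA+VFX, CIA and Cont, whereas basal-layer keratinocytes had more Lama3 than Lamb3.

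Of the epithelial integrins, Itga6, the alpha chain of the hemidesmosome receptor, was 561, 622 and 827 CPM in basal-layer keratinocytes of CIA+VFX, CIA and Cont, the class in which it was highest in each library. Its partner Itgb4 was 122, 154 and 153 CPM in CIA+VFX, CIA and Cont there and 75.4, 82.2 and 64.2 CPM in lymphatic endothelial cells. In T cells Itgb4 was 6.20, 6.32 and 7.47 CPM in CIA+VFX, CIA and Cont. Itga3, a laminin receptor chain that pairs with Itgb1, was 101, 121 and 143 CPM in CIA+VFX, CIA and Cont in basal-layer keratinocytes. Itga2, a collagen receptor chain, was 150.4, 151 and 214 CPM in CIA+VFX, CIA and Cont there, with much of it in 2 clusters of the class. It was 734, 1295 and 1242 CPM in CIA+VFX, CIA and Cont in cluster 16 and 416, 479 and 600.3 CPM in cluster 24, against 26.3, 31.6 and 38.3 CPM in cluster 0. Itga2 is among the leading genes of clusters 16 and 24, so these values only describe them. Taken whole, cluster 24 was named inner root sheath by the markers, and cluster 16 got no name. Itgb6, the epithelial beta chain that pairs with Itgav, was 98.3, 93.3 and 79.4 CPM in CIA+VFX, CIA and Cont in upper follicle keratinocytes and 74.6, 105 and 80.9 CPM in basal-layer keratinocytes, with no order that held in every library.

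Thinned to 2000 UMIs per cell, 55.3%, 59.5% and 67.6% of basal-layer keratinocytes had a UMI of Itga6 and 20.01%, 23.9% and 22.1% a UMI of Itgb4 in CIA+VFX, CIA and Cont. Both were found together in 13.1%, 16.0% and 17.3% of cells, where independence of the genes would give 11.1%, 14.2% and 14.9% in CIA+VFX, CIA and Cont. Without thinning, 79.2%, 80.7% and 88.3% of the cells had Itga6 and 47.9%, 52.9% and 56.0% had Itgb4 in CIA+VFX, CIA and Cont. In T cells, the share with Itga6 was 7.43%, 4.78% and 6.58% after thinning and 15.2%, 9.42% and 14.2% before it in CIA+VFX, CIA and Cont.

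In the mesenchyme and vessels, Itgb1, the beta chain with the most partners, was highest in pericytes and smooth muscle, at 1172, 1029 and 1210 CPM in CIA+VFX, CIA and Cont. Itga1, a collagen receptor chain, was 709.9, 541 and 587 CPM in CIA+VFX, CIA and Cont in that class. Itga8, which binds nephronectin and fibronectin, was 261, 201 and 331 CPM in CIA+VFX, CIA and Cont there. Itga7, a laminin receptor chain of muscle, was 168, 142 and 102 CPM in CIA+VFX, CIA and Cont. Pericytes and smooth muscle were thus the highest of the 17 classes for these 4 chains in each library. Itga5, the fibronectin receptor chain, was 209.6, 198 and 242 CPM in CIA+VFX, CIA and Cont in them and 202, 206 and 182 CPM in vascular endothelial cells. Itga9, a receptor chain for tenascin, was highest in dermal papilla cells, at 684, 542 and 554 CPM in CIA+VFX, CIA and Cont, and was 287, 261 and 214 CPM in lymphatic endothelial cells. Itga11, a collagen receptor chain of fibroblasts, was 92.3, 116 and 80.8 CPM in CIA+VFX, CIA and Cont in dermal sheath cells and 54.4, 54.6 and 49.6 CPM in fibroblasts. In the annotation Pelo overlaps Itga1 on the same strand, and it was 45.3, 37.5 and 29.7 CPM in CIA+VFX, CIA and Cont in pericytes and smooth muscle. Itgb5, a partner of Itgav, was 165, 127 and 147 CPM in CIA+VFX, CIA and Cont in fibroblasts and 155, 147 and 121 CPM in dermal sheath cells.

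Among leukocytes, Itgav, the alpha chain of receptors for RGD-bearing ligands, was 1628, 1605 and 1482 CPM in CIA+VFX, CIA and Cont in T cells and 1127, 975 and 1285 CPM in natural killer cells. Itgae, the alpha chain that binds E-cadherin, was 343, 350.4 and 295 CPM in CIA+VFX, CIA and Cont in T cells and 208, 255 and 108 CPM in natural killer cells. Itgb8, which with Itgav activates TGF-beta, was 122, 81.0 and 108 CPM in CIA+VFX, CIA and Cont in T cells. It was 273, 250.1 and 238 CPM in CIA+VFX, CIA and Cont in the cluster led by Ctla4 and Foxp3, against 0.598, 1.41 and 0.483 CPM in the cluster led by Blk and Il17a. Itgb8 was thus set apart between the T cell clusters in every library. Itgb7, a beta chain of leukocyte integrins, was 182, 139.9 and 144 CPM in CIA+VFX, CIA and Cont in T cells. Itga4, whose receptors bind Vcam1, was highest in natural killer cells, at 1012, 655 and 789.6 CPM in CIA+VFX, CIA and Cont. Itgal, the alpha chain that binds Icam1, was 188, 177 and 213 CPM in CIA+VFX, CIA and Cont there. Natural killer cells were the highest of the 17 classes for both in every library. Itgax was 81.5, 46.6 and 109.5 CPM in CIA+VFX, CIA and Cont in natural killer cells, the highest of the 17 classes, 52.7, 44.1 and 63.6 CPM in dendritic and Langerhans cells and 66.7, 52.1 and 109.8 CPM in neutrophils. Itgam, which with Itgb2 forms a phagocyte receptor, was 283, 263 and 271 CPM in CIA+VFX, CIA and Cont in macrophages and monocytes and 432, 467 and 622 CPM in neutrophils. Itgb2 was 175, 173 and 184 CPM in CIA+VFX, CIA and Cont in macrophages and monocytes, the highest of the 17 classes, and 299, 295 and 274 CPM in neutrophils. The neutrophil levels of Itgam and Itgb2 were thus above those of macrophages and monocytes in each library. Itgb3, a beta chain of platelet and endothelial receptors, was 92.9, 126 and 78.5 CPM in CIA+VFX, CIA and Cont in vascular endothelial cells. Itga2b, its platelet partner, was 19.6, 18.4 and 19.6 CPM in CIA+VFX, CIA and Cont in fibroblasts, and 256, 294 and 63.9 CPM in basophils, which had 97, 102 and 5 cells. Itga10, a collagen receptor chain of cartilage, was 16.3, 11.1 and 7.08 CPM in CIA+VFX, CIA and Cont in pericytes and smooth muscle, and Itgad was 2.81, 9.31 and 8.76 CPM in natural killer cells.

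In the model (CIA against Cont), basal-layer keratinocytes had lower Lama3 and Itga6, while Itgb4 and Lamb3 had log2 ratios of 0.01 and 0.07. Lama3 was 179 CPM in CIA and 275 in Cont, a log2 ratio of -0.62 (-0.67 to -0.58). Itga6 was 622 CPM in CIA and 827 in Cont, a log2 ratio of -0.41 (-0.44 to -0.38), which is under the 1.5-fold limit. Of 33 members measured, 5 were at least 1.5-fold higher in CIA and 2 lower, against 11.4% and 4.12% of all 14629 genes measured. The median log2 ratio of the members was 0.07 (-0.08 to 0.23) and that of all genes 0.08. The counts and the median were close to those of all genes. Lama4 was 27.8 CPM in CIA and 10.0 in Cont, and Itga1 44.2 in CIA and 26.6 in Cont.

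The shares of clusters in this class differed between libraries, so the members were also read within clusters. Of these, clusters 5 and 24 as a whole were named inner root sheath by the markers, 7 upper follicle keratinocyte and 12 sebocyte. Cluster 16 got no name. Lama3 was lower in CIA than in Cont in 7 of the 10 clusters with values in all libraries. It was 320.0, 241 and 468 CPM in CIA+VFX, CIA and Cont in cluster 0, 483, 469.6 and 796 in cluster 18 and 267, 241 and 489 in cluster 30. In clusters 7, 12 and 16 it was higher in CIA than in Cont, for example 205 CPM in CIA and 178 in Cont in cluster 16. Itga6 was 831, 821 and 1193 CPM in CIA+VFX, CIA and Cont in cluster 0 and 1639, 1660 and 2011 in cluster 18. Lama4 was 344, 272 and 387 CPM in CIA+VFX, CIA and Cont in cluster 12, which the sebaceous genes Elovl3 and Far2 led, against 3.24, 1.40 and 1.29 CPM in cluster 0. Cluster 12 held 217 of 4392 cells of the class in CIA+VFX, 122 of 2932 in CIA and 61 of 2732 in Cont. With classes taken from clusters, the log2 ratio of Lama4 was 0.10. Itga1 was 349 and 351 CPM in cluster 32 of CIA+VFX and CIA, from 56 cells in CIA+VFX and 114 in CIA. Cont had 2 cells of that cluster, and without it the log2 ratio of Itga1 in CIA over Cont was 0.25.

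With venlafaxine (CIA+VFX against CIA), the members of basal-layer keratinocytes lay lower on the whole. Of 34 measured, 0 were at least 1.5-fold higher and 5 lower, against 2.12% and 5.53% of all 14943 genes. None of these 5 met the limits for naming. The median log2 ratio of the members was -0.22 (-0.35 to -0.07), while that of all genes was -0.04. Cluster 30 held 129 of 4392 cells of the class in CIA+VFX and 233 of 2932 in CIA. Cluster 24 held 13.4% of the class in CIA+VFX and 7.23% in CIA, and cluster 5 held 11.6% and 7.33%. Cluster 18 held 12.8% in CIA+VFX and 18.9% in CIA. The part of such cluster shares in the median was not tested. Itgb4 was 122 CPM in CIA+VFX and 154 in CIA. Lama3 was 161 CPM in CIA+VFX and 179 in CIA. Both genes were lower in CIA+VFX over the class, each by less than 1.5-fold. Within the 10 clusters with values in all libraries, Lama3 was higher in CIA+VFX than in CIA in 6 and Itgb4 was lower in 9. In cluster 0 Lama3 was 320.0 CPM in CIA+VFX and 241 in CIA. Clusters 32 and 41 had too few Cont cells for a value. Lama3 there was lower in CIA+VFX than in CIA, at 211 against 325 CPM and 21.6 against 35.5 CPM. Itgb4 was 92.25 CPM in CIA+VFX and 164 in CIA in cluster 32. In cluster 41 it was 13.7 CPM in CIA+VFX and 3.94 in CIA. Over the class and set against Cont, Lama3 in CIA+VFX had a log2 ratio of -0.77 (-0.82 to -0.73). In that comparison 4 of 34 members were at least 1.5-fold higher and 5 lower, against 7.3% and 3.98% of all genes. Itgb8, at 38.8 CPM in CIA+VFX and 24.4 in Cont, was among the higher ones.

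**Figure D3:**
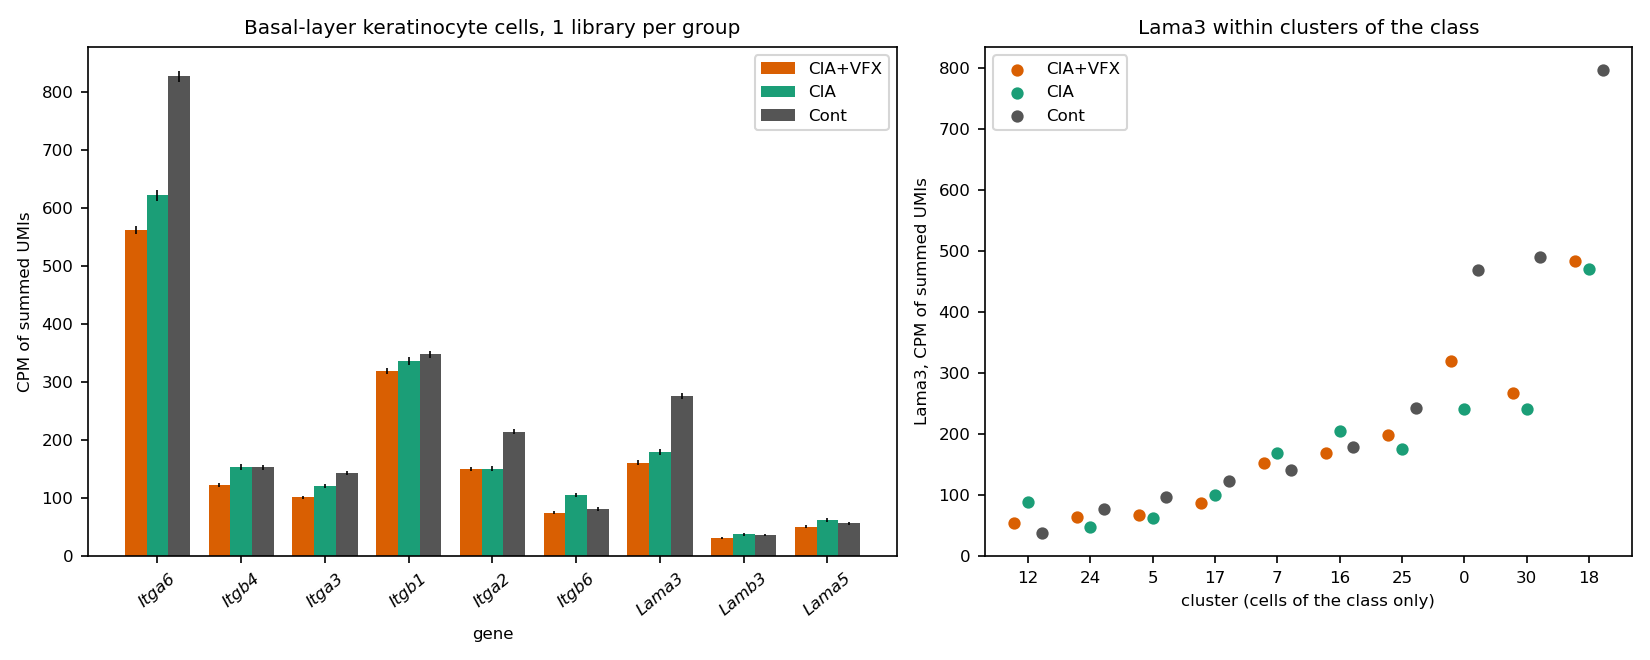
Left, CPM of 9 integrin and laminin genes in basal-layer keratinocytes, with 1 bar per library and 95% Poisson intervals for counting error. Right, Lama3 within each of 10 clusters of the class. Lama3 was 161, 179 and 275 CPM in the class and 320.0, 241 and 468 CPM in cluster 0 of CIA+VFX, CIA and Cont.

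Suprabasal keratinocytes, which have left the basement membrane, had lower levels of several members in the model. The class was small, with 188, 123 and 64 cells in CIA+VFX, CIA and Cont. Itga6 was 129, 104 and 344 CPM and Itgb1 47.3, 46.1 and 88.0 CPM in CIA+VFX, CIA and Cont. Both model libraries were below Cont for these genes. The log2 ratio of CIA over Cont was -1.73 (-1.98 to -1.48) for Itga6 and -0.71 (-1.21 to -0.20) for Itgb5. Of 10 members measured, 0 were at least 1.5-fold higher and 8 lower, against 10.7% and 23.7% of all 6427 genes. The count covers only those 10, which passed the 50-UMI limit partly through the library in which they were high. Scaling by TMM moved every log2 ratio of the class by 0.28, which leaves Itga6 past the fold but not Itgb5, at -0.42, and 7 of 10 members at least 1.5-fold lower. For CIA+VFX over Cont, the log2 ratio was -1.42 (-1.64 to -1.20) for Itga6 and -0.89 (-1.30 to -0.49) for Itgb1, but 0.0253 for Itga6 when only cells with a class score at least 2 times the next were kept, and 0.42 for Itgb1 as a mean over cells. Within cluster 7, which held 52 of the 64 Cont cells, Itga6 was 111, 102 and 314 CPM in CIA+VFX, CIA and Cont. In the class the 12 basal-layer markers summed to 20980, 25800 and 15970 CPM in CIA+VFX, CIA and Cont and the 8 suprabasal markers to 33640, 35130 and 25340 CPM, and their part in these values was not tested. With venlafaxine against CIA, 0 of 10 members were higher and 1 lower, against 8.54% and 7.09% of all genes. Against Cont, 1 of 11 was higher and 8 lower in CIA+VFX, against 8.18% and 19.7%.

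Upper follicle keratinocytes had Itga6 at 211, 223 and 379 CPM and Itga3 at 31.4, 23.0 and 58.6 CPM in CIA+VFX, CIA and Cont, so both model libraries were below Cont here too. The log2 ratio of CIA over Cont was -0.77 (-0.92 to -0.62) for Itga6 and -1.35 (-1.79 to -0.92) for Itga3. Of 17 members measured, 1 was at least 1.5-fold higher and 3 were lower, against 14.4% and 16.2% of all genes. With venlafaxine, Itgb4 was 34.2 CPM in CIA+VFX and 56.0 in CIA, and Itgb5 25.9 CPM in CIA+VFX and 10.3 in CIA. In that comparison 1 of 17 members was higher and 3 were lower, against 4.64% and 7.21%. Sebocytes had Itgb6 at 32.5, 35.4 and 17.2 CPM in CIA+VFX, CIA and Cont, with 3 of 11 members higher in CIA than in Cont and 0 lower, against 12.4% and 18.6% of all genes. Scaling by TMM moved the sebocyte ratios of CIA over Cont by 0.17. In the matrix and hair shaft class Itgb1 was 86.6, 50.8 and 87.0 CPM in CIA+VFX, CIA and Cont, lowest in CIA. Melanocytes had Itga6 at 58.0, 140.0 and 43.9 CPM in CIA+VFX, CIA and Cont from 46, 59 and 46 UMIs and Lama3 at 129, 147 and 81.1 CPM, with both highest in CIA over the whole class. Within cluster 31, which held 92.3%, 92.9% and 90.5% of the class, Itga6 was 22.8, 26.3 and 21.9 CPM and Lama3 122, 103 and 57.0 CPM in CIA+VFX, CIA and Cont, so Itga6 was less than 1.5-fold apart between libraries there and Lama3 was highest in CIA+VFX. In melanocytes 2 of 9 members were higher in CIA than in Cont and 1 lower, against 12.8% and 14.8%.

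Dermal papilla cells, the signalling cells at the base of the follicle, had a member median log2 ratio of -0.21 (-0.37 to -0.13) in CIA over Cont, while all genes had 0.11. Of 25 members measured, 3 were at least 1.5-fold higher and 4 lower, against 10.2% and 6.18% of all 11998 genes. Lamc3 was 199.9 CPM in CIA and 109 in Cont, a log2 ratio of 0.88 (0.78 to 0.98). Within cluster 8, led by Rspo4, Lamc3 was 134 CPM in CIA and 103 in Cont. Within cluster 22, led by Tnn and Acan, it was 511 CPM in CIA and 284 in Cont, and that cluster gave 95 of 770 cells in CIA and 26 of 527 in Cont. With classes taken from clusters, the log2 ratio of Lamc3 was 0.35. Lamc1 was 147, 136 and 211 CPM in the class and 146, 138 and 208 CPM in cluster 8 in CIA+VFX, CIA and Cont. With venlafaxine, Lamc3 was 128 CPM in CIA+VFX and 199.9 in CIA, and 2 of 23 members were higher and 3 lower, against 4.77% and 4.67% of all genes. Itga6 was 26.9 CPM in CIA+VFX and 26.4 in Cont in the class, with CIA below both at a log2 ratio of -1.14 (-1.45 to -0.83) over Cont, and 26.4, 11.7 and 26.6 CPM in CIA+VFX, CIA and Cont in cluster 8. The basal-layer markers summed to 197, 144 and 123 CPM in CIA+VFX, CIA and Cont in the dermal papilla class, and their part in the Itga6 values was not tested.

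In fibroblasts 2 of 26 members measured were at least 1.5-fold higher in CIA than in Cont and 1 lower, against 7.69% and 8.18% of all 12542 genes, and none of these met the limits for naming. Lama2 was 857, 804 and 756 CPM, Lamc1 394, 421 and 355 CPM and Itgb1 455, 367 and 338 CPM in CIA+VFX, CIA and Cont, so no library stood 1.5-fold from another. With venlafaxine, 2 of 27 were higher and 0 lower than in CIA, against 5.21% and 2.54%. In dermal sheath cells Itga8 was 145, 87.9 and 96.5 CPM in CIA+VFX, CIA and Cont, with 1 of 17 members higher in CIA+VFX than in CIA and 0 lower, against 3.83% and 3.61% of all genes.

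Vascular endothelial cells had lower Itga1 in the model, at 266, 213 and 400.1 CPM in CIA+VFX, CIA and Cont, and a log2 ratio of -0.91 (-1.01 to -0.80) in CIA over Cont. Itgb3 was 92.9, 126 and 78.5 CPM in CIA+VFX, CIA and Cont, highest in CIA. Of 25 members measured, 2 were at least 1.5-fold higher and 4 lower in CIA, against 13.7% and 5.58% of all 10206 genes. In the main cluster of the class, led by genes such as Flt1 and Emcn, Itga1 was 204, 197 and 399 CPM in CIA+VFX, CIA and Cont, and CIA was below Cont there too. Lama2 was 33.5, 20.6 and 72.8 CPM in CIA+VFX, CIA and Cont in the class but 3.28, 3.95 and 4.86 CPM in the main cluster. In cluster 35 it was 82.2, 77.8 and 153 CPM in CIA+VFX, CIA and Cont. The leading genes of cluster 35 include the pericyte genes Rgs5 and Abcc9 and also Selp and Ackr1. By the markers, that cluster scored 0.66 for vascular endothelial cells and 0.40 for pericytes and smooth muscle. Cluster 35 held 19.6%, 13.1% and 28.6% of the class in CIA+VFX, CIA and Cont. The 9 pericyte and smooth muscle markers summed to 1358, 782 and 983 CPM in CIA+VFX, CIA and Cont in the class, with none of them at 0 in any library, and the fibroblast markers to 318, 143 and 289 CPM. The part of such cells or RNA in the Lama2 values was not tested. With venlafaxine, 6 of 26 members were higher and 1 lower than in CIA, against 5.13% and 3.39% of all 11692 genes. Itga7 was 23.6 CPM in CIA+VFX and 12.1 in CIA in the class. Within cluster 35 it was 56.3 CPM in CIA+VFX and 47.0 in CIA, and within the main cluster 3.41 CPM in CIA+VFX and 1.11 in CIA.

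Pericytes and smooth muscle had higher levels of several laminin chains in the model. Lama4 was 255, 318 and 159.9 CPM, Lama2 203, 239 and 129 CPM and Lamc1 253, 257 and 164 CPM in CIA+VFX, CIA and Cont. Both model libraries were above Cont for each of these chains. The log2 ratio of CIA over Cont was 0.99 (0.70 to 1.29) for Lama4, 0.89 (0.57 to 1.23) for Lama2, 0.83 (0.27 to 1.44) for Lamb1 and 0.65 (0.35 to 0.95) for Lamc1. Itga8 was 261, 201 and 331 CPM in CIA+VFX, CIA and Cont, lowest in CIA. Of 17 members measured, 5 were at least 1.5-fold higher and 1 lower, against 15.5% and 8.41% of all 6683 genes, and the Cont class had 70 cells. Within cluster 10, led by the smooth muscle genes Myh11 and Cnn1, Lama4 was 266, 297 and 155 CPM in CIA+VFX, CIA and Cont and Lamc1 247, 237 and 135 CPM. The fibroblast markers summed to 1376, 1263 and 639.6 CPM in CIA+VFX, CIA and Cont in the class and the vascular endothelial markers to 1247, 1388 and 843 CPM, and their part in the laminin values was not tested. With venlafaxine, 1 of 22 members was higher and 0 lower than in CIA, against 4.72% and 5.0% of all genes. That member, Itga4, was 65.2 CPM in CIA+VFX and 40.01 in CIA.

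In macrophages and monocytes, 8 of 22 members measured were at least 1.5-fold higher in CIA than in Cont and 2 lower, against 17.8% and 9.34% of all 11172 genes. Itga1 was 32.8, 25.8 and 10.2 CPM, Itgb5 29.2, 24.4 and 9.47 CPM and Itgb7 90.8, 87.2 and 41.0 CPM in CIA+VFX, CIA and Cont. Both model libraries were above Cont for these genes. The log2 ratio of CIA over Cont was 1.34 (1.05 to 1.63) for Itga1, 1.37 (1.07 to 1.67) for Itgb5 and 1.09 (0.94 to 1.24) for Itgb7. The clusters of the class took different shares in Cont. Cluster 2, led by Chil3 and Ly6c2, held 49.4%, 52.5% and 10.7% of its cells, and cluster 33, led by Lyz1 and Ear2, held 3.99%, 3.67% and 31.3% in CIA+VFX, CIA and Cont. Within cluster 2 Itga1 was 51.6, 41.9 and 40.8 CPM in CIA+VFX, CIA and Cont, Itgb5 50.3, 38.9 and 45.6 CPM and Itgb7 148, 131 and 141 CPM, so CIA and Cont were less than 1.5-fold apart there. Itga9 was 52.0, 40.4 and 21.7 CPM in CIA+VFX, CIA and Cont in the class and 84.7, 76.7 and 42.5 CPM within cluster 4, led by Folr2, where both model libraries were also above Cont. Itgav was 155 CPM in CIA+VFX and 132 in CIA, both below Cont, with a log2 ratio of -0.60 (-0.68 to -0.51) in CIA over Cont. Scaling by TMM moved the log2 ratios of the class by -0.12 in CIA over Cont and by -0.20 in CIA+VFX over Cont.

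With venlafaxine, 5 of 21 members in macrophages and monocytes were higher than in CIA and 1 lower, against 4.86% and 2.04% of all 10926 genes. The member median was 0.23 (0.08 to 0.36), with 0.05 for all genes. Itgal was 38.0, 18.3 and 9.32 CPM in CIA+VFX, CIA and Cont, a log2 ratio of 1.06 (0.83 to 1.29) in CIA+VFX over CIA. Within cluster 2 Itgal was 74.5, 30.5 and 49.6 CPM in CIA+VFX, CIA and Cont, so CIA+VFX was highest there too, while CIA was below Cont. The natural killer markers summed to 20.9, 20.9 and 7.86 CPM in CIA+VFX, CIA and Cont in the class and the T cell markers to 9.77, 9.69 and 12.3 CPM, and their part in the Itgal values was not tested. Against Cont, 11 of 21 members were past the fold in CIA+VFX in either direction, against 25.6% of all genes.

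**Figure D4:**
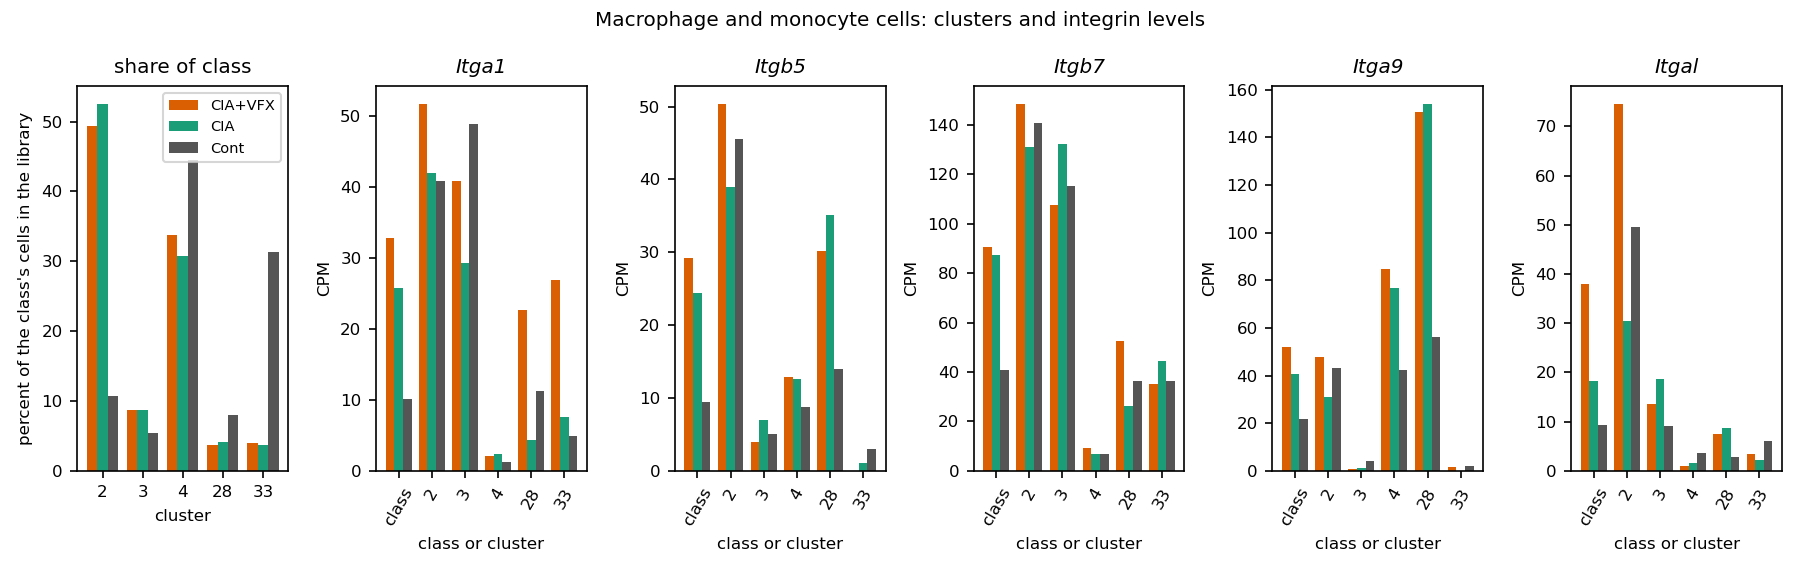
Left, the percent of macrophage and monocyte cells in each of 5 clusters, with 1 bar per library. Right, CPM of Itga1, Itgb5, Itgb7, Itga9 and Itgal in the class and in each cluster. Cluster 2 held 49.4%, 52.5% and 10.7% of the class in CIA+VFX, CIA and Cont, and Itga1 was 51.6, 41.9 and 40.8 CPM within it.

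T cells had lower levels of several members in CIA. Itga1 was 28.5, 16.9 and 56.8 CPM, Itga2 20.5, 12.1 and 27.1 CPM and Itgb1 203, 139 and 214 CPM in CIA+VFX, CIA and Cont. CIA was lowest for each. The log2 ratio of CIA over Cont was -1.75 (-2.10 to -1.41) for Itga1, -1.16 (-1.61 to -0.74) for Itga2 and -0.62 (-0.75 to -0.49) for Itgb1. Of 20 members measured, 1 was at least 1.5-fold higher and 5 were lower, against 13.7% and 6.67% of all 9662 genes. Itga1 was 183, 152 and 284 CPM in CIA+VFX, CIA and Cont in cluster 20, led by genes such as Gzma and Prf1. By the markers, that cluster as a whole was named natural killer. It held 78, 68 and 134 cells of the class in CIA+VFX, CIA and Cont, or 7.6%, 5.67% and 11.7%. It gave 86 of 133, 54 of 91 and 235 of 319 Itga1 UMIs of the class in CIA+VFX, CIA and Cont. The part of its share in the Itga1 values was not tested. Itgb1 was 285, 225 and 291 CPM in CIA+VFX, CIA and Cont within cluster 13, led by Ctla4 and Foxp3, and 103, 82.2 and 104 CPM within cluster 14, led by Blk and Il17a. Cluster 13 held 41.9%, 29.2% and 47.5% of T cells and cluster 14 41.5%, 55.5% and 37.3% in CIA+VFX, CIA and Cont. With venlafaxine, 3 of 19 members were higher than in CIA and 0 lower, against 3.96% and 4.11% of all genes. These were Itga1, Itga2 and Itgb8, with log2 ratios of 0.75, 0.77 and 0.59. Itgb8 was 122 CPM in CIA+VFX and 81.0 in CIA in the class, but 273 CPM in CIA+VFX and 250.1 in CIA within cluster 13. Pelo, which overlaps Itga1, was 9.84, 8.18 and 8.90 CPM in CIA+VFX, CIA and Cont in T cells.

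Natural killer cells had Itga2, a marker of these cells in mice, at 81.5, 40.4 and 116 CPM in CIA+VFX, CIA and Cont, from 29, 13 and 185 UMIs. Itgax was 81.5, 46.6 and 109.5 CPM in CIA+VFX, CIA and Cont and Itgae 208, 255 and 108 CPM. The log2 ratio of CIA over Cont was -1.52 (-2.46 to -0.71) for Itga2 and 1.24 (0.84 to 1.63) for Itgae. The CIA class held 57 cells, and 3 of 13 members were higher and 2 lower, against 12.8% and 11.7% of all 4986 genes. Scaling by TMM moved these ratios by -0.18. The natural killer markers summed to 4108, 3369 and 6547 CPM in CIA+VFX, CIA and Cont and the T cell markers to 823, 773 and 789.6 CPM in the class, and their part in these values was not tested.

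**Figure D5:**
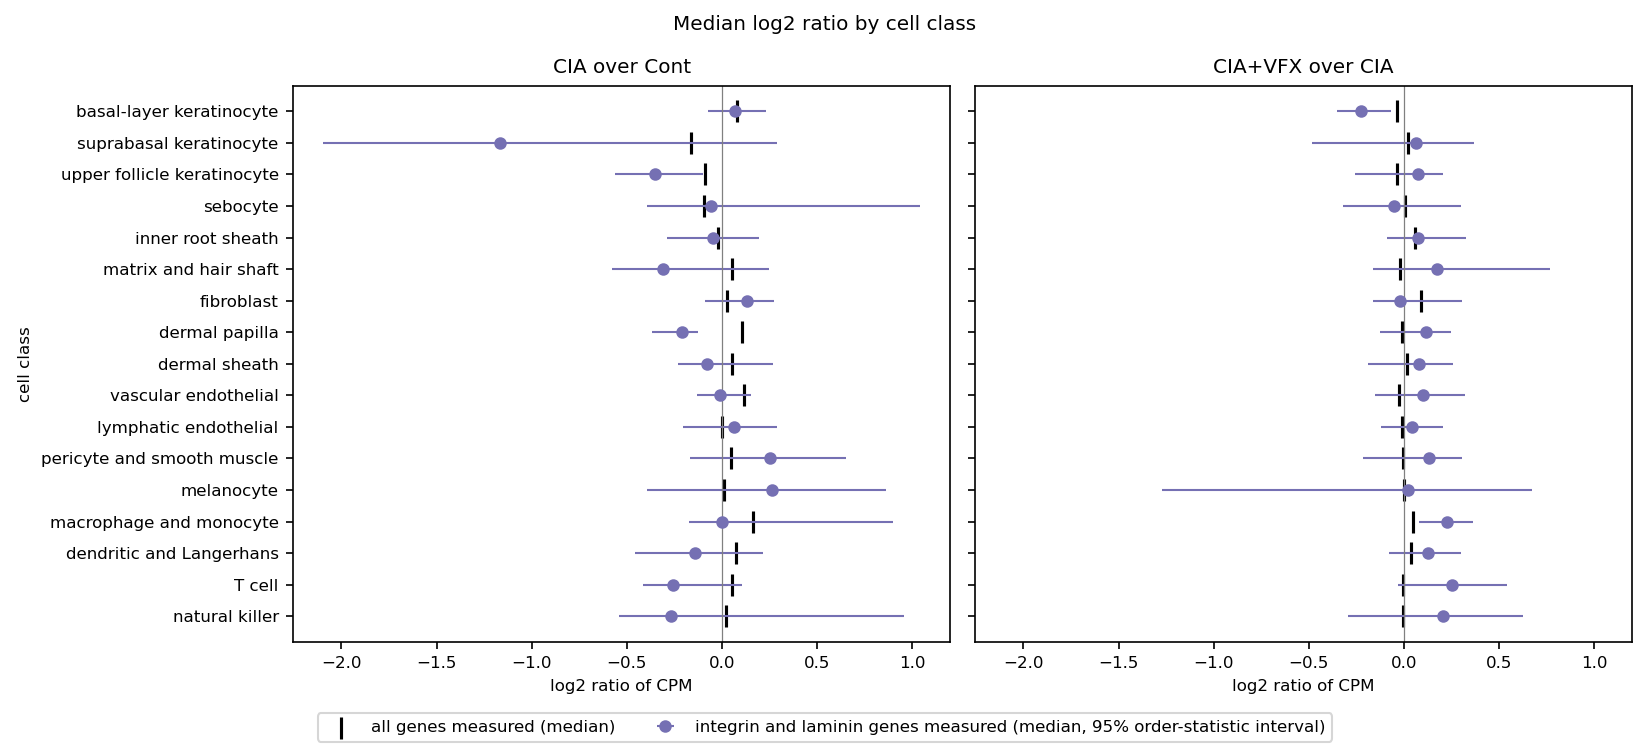
Median log2 ratio of the integrin and laminin genes measured in each class (points, with 95% order-statistic intervals over genes) and of all genes measured (ticks), for CIA over Cont and for CIA+VFX over CIA. In CIA+VFX over CIA the members had -0.22 (-0.35 to -0.07) in basal-layer keratinocytes, where all genes had -0.04, and 0.23 (0.08 to 0.36) in macrophages and monocytes, where all genes had 0.05.

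Other genes of the adhesion pathway were read from 4 lists. Of the 4 hemidesmosome genes measured in suprabasal keratinocytes, 3 were at least 1.5-fold lower in CIA than in Cont and 0 higher, against 23.7% and 10.7% of all genes. Col17a1, a collagen that spans the membrane in hemidesmosomes, was 95.8, 91.7 and 265 CPM and Dst, a plakin linker, 185, 149 and 371 CPM in CIA+VFX, CIA and Cont. In basal-layer keratinocytes, 0 of 4 hemidesmosome genes were higher and 0 lower, where 11.4% of all genes were higher and 4.12% lower. Among 12 basement membrane genes there, 2 were higher and 0 lower, with Col7a1, the anchoring fibril collagen, at 15.6, 26.5 and 14.8 CPM in CIA+VFX, CIA and Cont. Of 18 genes that link integrins to actin, 1 was higher and 1 lower there. Icam1, a ligand of Itgb2 integrins, was 62.2, 74.1 and 38.3 CPM in CIA+VFX, CIA and Cont in basal-layer keratinocytes, 657, 606 and 339 CPM in vascular endothelial cells and 166, 197 and 105 CPM in pericytes and smooth muscle. CIA was above Cont in each of these classes. Tnc, a ligand of Itga9 and Itgav receptors, was 369.5, 556 and 115 CPM in CIA+VFX, CIA and Cont in fibroblasts, a log2 ratio of 2.28 (2.19 to 2.36) in CIA over Cont. Cluster 22, led by Tnn and Acan, held 12.4%, 12.2% and 4.06% of fibroblasts and cluster 29 held 18.02%, 14.5% and 40.6% in CIA+VFX, CIA and Cont, and their part in the Tnc values was not tested. In pericytes and smooth muscle, 7 of 10 genes of the list of other ligands and 4 of 9 basement membrane genes were higher in CIA than in Cont, where 15.5% of all genes were. Col4a1 was 1348, 1583 and 921 CPM in CIA+VFX, CIA and Cont there. The fibroblast markers summed to 1376, 1263 and 639.6 CPM in CIA+VFX, CIA and Cont in that class, and their part in these counts was not tested. In T cells Fermt2, a kindlin that activates integrins, was 91.1, 78.2 and 24.6 CPM in CIA+VFX, CIA and Cont.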

How the data were processed

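Per the labels' protocols, single-cell suspensions of pooled skin went into 10x GEM-X 3' v4 libraries. The deposited files hold whole-number UMI counts per gene and barcode, made with Cell Ranger 8.0.1 on GRCm39, per the file headers and the submitters' processing notes, which also name FastQC 0.11.7. Libraries held 18987 (CIA+VFX), 17675 (CIA) and 14529 (Cont) barcodes and 155210692, 130557879 and 143164803 UMIs. Their median mitochondrial share was 2.40%, 1.42% and 2.32%.

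Barcodes under 500 genes or above 15% mitochondrial UMIs were dropped, and 1263, 1172 and 734 likely doublets were removed by simulated neighbours, at 0.4% per 1000 barcodes. Each cell took the class whose markers it scored highest, with 189 of 191 listed markers in use. These classes are defined by markers alone, so each name means cells like that type. Leiden clusters at resolution 1.5 gave the same name to 81.7% of 35755 cells named by both. UMIs were summed per class and library. With 1 library per group there was no test: log2 ratios of CPM have exact conditional binomial intervals, levels exact Poisson intervals and list medians order-statistic intervals. Alternatives covered scaling (TMM factors from edgeR 4.0.16, median of ratios), classes, filters, thinning and free RNA. Named members had at least 100 UMIs in the compared libraries, at least 20 CPM in the higher one and a 1.5-fold difference, at most 4 per direction. Clusters, promoters and overlapping genes were described beside them. Of the members, 1 is not reported here by itself, though counts and medians over members include it. The members and lists were chosen with earlier results of these data known. Python 3.11.15, numpy 2.4.6, scipy 1.17.1, pandas 2.3.3, scikit-learn 1.9.0, igraph 0.11.9 and R 4.3.3 were used, and the scripts were tested on simulated data.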

Additional observations from a re-analysis of the deposited data

How the results depend on the processing

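No paired analysis was possible because each group had 1 library, and leaving out a replicate was not possible for the same reason. Medians over members were put through other settings only for basal-layer keratinocytes, fibroblasts, vascular endothelial cells, macrophages and monocytes, and T cells. The dermal papilla median was not among them, nor were those of the other compared classes. The 11 other settings were joined by 1 chosen after seeing the data (leaving out cluster 32). Under them, 164 of 168 values of these 15 medians lay within the interval of the median as reported. The exceptions were basal-layer keratinocytes in CIA over Cont as a mean over cells (0.28), vascular endothelial cells in CIA over Cont after thinning (0.23), and macrophages and monocytes in CIA+VFX over Cont with TMM (0.0623) and median-of-ratios scaling (0.0555). The settings with other UMI limits could not change a named difference, only whether it had a value. Of 90 named differences, 85 never changed sign, 61 fell under 1.5-fold under at least 1 setting and 29 did not in any that gave a value. Those that changed sign were Itgb4 in sebocytes (-0.0777) and Itgb1 in suprabasal keratinocytes (0.42), both CIA+VFX over Cont as a mean over cells, and Itga6 in suprabasal keratinocytes, CIA+VFX over Cont, with the stricter class limit (0.0253). For CIA+VFX over CIA, they were Itga2 in upper follicle keratinocytes with classes from clusters (0.0559) and Lama2 in vascular endothelial cells after thinning (-0.27). The cause was not tested.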
